A study of Rattus norvegicus with 6 samples.

Results

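A locus on the plus strand of chromosome 2, read in the rat thalamus, gave 12 of the 32445 circular RNAs (circRNAs) in the deposited count table. The members were novel_circ_0024921, chr2:22950023-22964734, and every circRNA on that strand whose span overlaps it. novel_circ_0024921 was chosen by its read counts in these libraries: it ranked 10 of 32445 by mean abundance, so its level is given as a description. The choice did not use the difference between the groups. Just outside the rule lay novel_circ_0024935, from 22997106 to 23000600, which overlaps longer members but not the leading circle. CFA replicates 1 to 3 held 5, 15 and 0 of its reads and saline replicates 1 to 3 held 34, 18 and 16, while the member with the fewest reads had 6 in all.

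The study compared 2 groups of 3 rats, 1 thalamus library per rat. The temporomandibular (jaw) joints of both sides received 50 µL of CFA, complete Freund's adjuvant, an oil with mycobacterial material that inflames tissue for long, or 50 µL of saline. Injections were repeated 2 times a week and the thalamus, a relay of sensory input to the cortex, was taken at 14 days. Strain, age and sex were not given in the sources used here, and the groups shared everything but the injected agent as far as the labels say. Libraries held 573696 to 1176178 circRNA reads. The library code of CFA replicate 3 begins differently from the codes of the other CFA rats, with a meaning not given in the sources used here. In bulk tissue, fewer cells that make a circle and fewer copies per cell cannot be told apart.

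A circRNA forms when the end of a downstream exon is spliced back onto the start of an upstream exon, which leaves a closed ring without cap or poly(A) tail. Such rings resist exonucleases, are frequent in neurons, and 1 gene can give several of them that share a start or an end. The back-splice junction is the stretch that sets each ring apart from the linear transcript. Some circRNAs carry miRNA sites or open reading frames that run through the junction. Identifiers and host genes are not paired in the files used here, so the host gene and its exons are not named, and the coordinates have a genome build not given in the sources used here. Tissue identity could not be checked against marker genes for the same reason. The labels' protocols describe purification on poly-T beads, which retain poly(A) RNA, and name no step that enriches circles. A selection of this kind would keep few circles, so the measured levels are those of the circles that came through.

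The deposited sequence of the leading circle is 537 nt long and was joined from parts of a 14712 nt span. All 11 other circles share sequence with it, from 157 nt upward, and novel_circ_0024928, novel_circ_0024920 and novel_circ_0024926 consist of its sequence throughout. Its bases 158 to 397 are shown beside the same part of novel_circ_0024928, because the deposited sequences differ here. Capitals mark a 15 nt stretch, bases 291 to 305 of the leading circle, that the other circles lack.
novel_circ_0024921: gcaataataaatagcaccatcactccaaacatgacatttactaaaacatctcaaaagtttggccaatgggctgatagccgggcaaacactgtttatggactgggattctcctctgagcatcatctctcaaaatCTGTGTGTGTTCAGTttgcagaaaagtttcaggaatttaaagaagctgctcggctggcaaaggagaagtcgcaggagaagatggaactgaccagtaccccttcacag
novel_circ_0024928: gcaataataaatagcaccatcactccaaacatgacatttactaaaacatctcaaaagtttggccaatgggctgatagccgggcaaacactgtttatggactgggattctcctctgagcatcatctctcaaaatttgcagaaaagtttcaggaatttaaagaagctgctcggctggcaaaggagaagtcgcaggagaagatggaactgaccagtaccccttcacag

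Places where novel_circ_0024928 and novel_circ_0024920 started, ended or skipped sequence divided the leading circle into 4 segments. The start of novel_circ_0024926, at 22950063, lies inside segment 1 and was not used as a limit. Segment 1 covers bases 1 to 157 and begins at 22950023. Segment 2 covers bases 158 to 290 and begins at 22954725, where novel_circ_0024928 and novel_circ_0024929 start. Segment 3 covers bases 306 to 397 and ends at 22957449, where novel_circ_0024920 ends. Segment 4, bases 398 to 537, ends at 22964734. The 15 nt stretch lies between segments 2 and 3, and its limits can shift over letters that repeat at both sides. Its sequence is present in the leading circle alone, while 5 other circles (novel_circ_0024928, novel_circ_0024924, novel_circ_0024920, novel_circ_0024918 and novel_circ_0024929) join segments 2 and 3 without it. It lies outside the bases that flank the back-splice junction, and the counts do not tell which form the rats' RNA held. How the full sequences were put together was not given in the sources used here.

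Junction sequences show which splice ends the circles share. Each is 58 nt, with the last 29 bases of the circle followed by its first 29, and capitals mark a side that is identical to that of the leading circle. The 6 circles read in all 6 libraries are shown, since the comparisons rest on them.
novel_circ_0024921: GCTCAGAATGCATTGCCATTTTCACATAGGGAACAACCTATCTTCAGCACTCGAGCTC
novel_circ_0024928: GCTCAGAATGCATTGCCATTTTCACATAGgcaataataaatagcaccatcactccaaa
novel_circ_0024924: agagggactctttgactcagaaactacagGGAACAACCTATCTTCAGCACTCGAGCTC
novel_circ_0024920: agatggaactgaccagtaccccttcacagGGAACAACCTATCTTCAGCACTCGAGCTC
novel_circ_0024918: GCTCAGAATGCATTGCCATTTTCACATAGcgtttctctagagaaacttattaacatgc
novel_circ_0024929: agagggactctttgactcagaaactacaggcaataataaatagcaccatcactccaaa

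Of the 12 circles, 7 ended at 22964734 as the leading circle does, and these held 96.4% of the reads of the locus. The start at 22950023 was shared by 5 circles, which held 96.0%. Both sets include the leading circle, which was chosen by its reads and alone held 92.7%, so it sets most of both shares. A far end at 23000600 was used by novel_circ_0024924 (574 nt) and novel_circ_0024929 (306 nt), whose sequences lack segment 4. Outside the 12 members, 1 circRNA of the table, novel_circ_0024935, shared a run of 20 bases with any of them, and 0 others had the junction sequence of the leading circle.

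**Figure D1:**
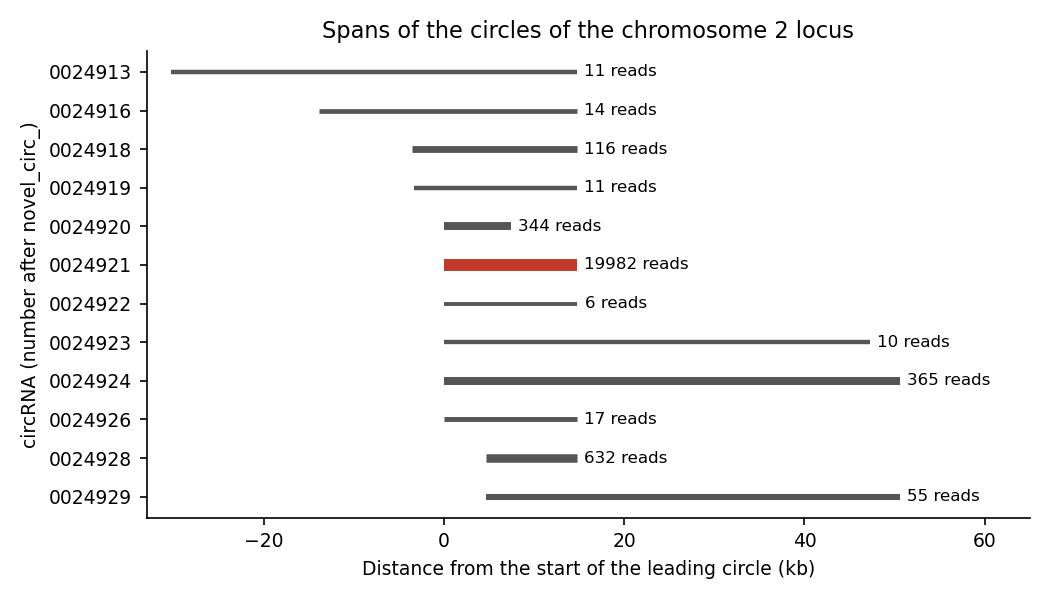
Spans of the 12 circles as bars, in kb from the start of the leading circle (red), with the reads summed over the 6 libraries beside each bar and line width growing with the log of the reads. The leading circle has 19982 reads, and 2 circles with the far end, 365 and 55 reads, reach beyond 50 kb.

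The leading circle was abundant in every rat and differed widely between rats of the same group. CFA replicates 1 to 3 had 2983, 5292 and 2911 of its reads, and saline replicates 1 to 3 had 1393, 2431 and 4972. Scaled to reads per 1000000 circRNA reads (RPM), these were 4543, 8121 and 3222 RPM in the CFA rats and 2428, 2067 and 5312 RPM in the saline rats. CFA replicate 2 and saline replicate 3 were the highest of their groups, and saline replicate 3 lay above CFA replicates 1 and 3, so the groups overlapped.

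Mean levels were 5296 ± 2535 RPM in CFA and 3269 ± 1778 RPM in saline rats (SD, n = 3 each), a ratio of 1.62. The highest rat of the CFA group held 2.52 times the lowest, and in the saline group this was 2.57. Counting error was far smaller: the exact Poisson 95% interval ran from 7904 to 8343 RPM in CFA replicate 2 and from 1986 to 2151 RPM in saline replicate 2. Since PCR copies of a molecule were not told apart, intervals here cover counting error only.

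**Figure D2:**
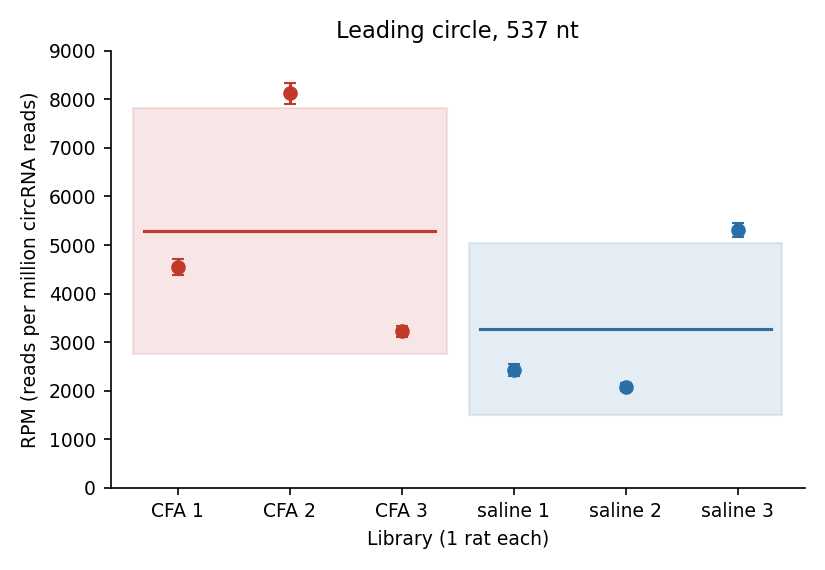
RPM of the leading circle in each library, CFA in red and saline in blue, with exact Poisson 95% intervals as bars, the group mean as a line and mean ± SD as a band (n = 3 each). CFA replicate 2 at 8121 RPM and saline replicate 3 at 5312 RPM stand above the other rats of their groups.

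Few circles of its level varied as much. Among 119 circRNAs with a mean of at least 1000 RPM and reads in every library, 3 had a larger SD of log2 RPM within groups. That SD was 0.70 for the leading circle against a median of 0.27, and the highest over the lowest of the 6 libraries was 3.93-fold against a median of 1.64-fold. These are descriptions of the libraries, with no test.

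CFA against saline asks whether the circle's level differs after 14 days of joint injections, and the difference did not pass. Its log2 fold change (CFA minus saline) was 0.63 ± 0.25 (SE), with an unadjusted p of 0.0120 and an adjusted p of 0.912 over 22426 circRNAs (edgeR quasi-likelihood F-test, Benjamini-Hochberg). That SE is smaller than the 0.57 given by the 6 log2 RPM values alone, and it was 0.46 when only circRNAs with at least 30 counts were fitted and 0.61 in DESeq2. In the same edgeR test the unadjusted p was 0.00804 to 0.0290 with RLE or total-count scaling, no filter or the replicate number as a block. The unadjusted p was 0.0520 without robust fitting, 0.175 with the filter filterByExpr, 0.186 with at least 30 counts and 0.270 in DESeq2 (Wald test).

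The value moved with single rats. Without saline replicate 3 the log2 fold change was 1.22 ± 0.24 and passed (adjusted p = 0.000693 in edgeR with Benjamini-Hochberg adjustment, where 0.168% of all circRNAs passed). Without CFA replicate 2 it was 0.23 ± 0.24, and without saline replicate 2 it was 0.40 ± 0.26, neither of which passed. The fit that passed left out the highest saline rat, and its SE was obtained as in the full fit, so the same limit applies to it.

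**Figure D3:**
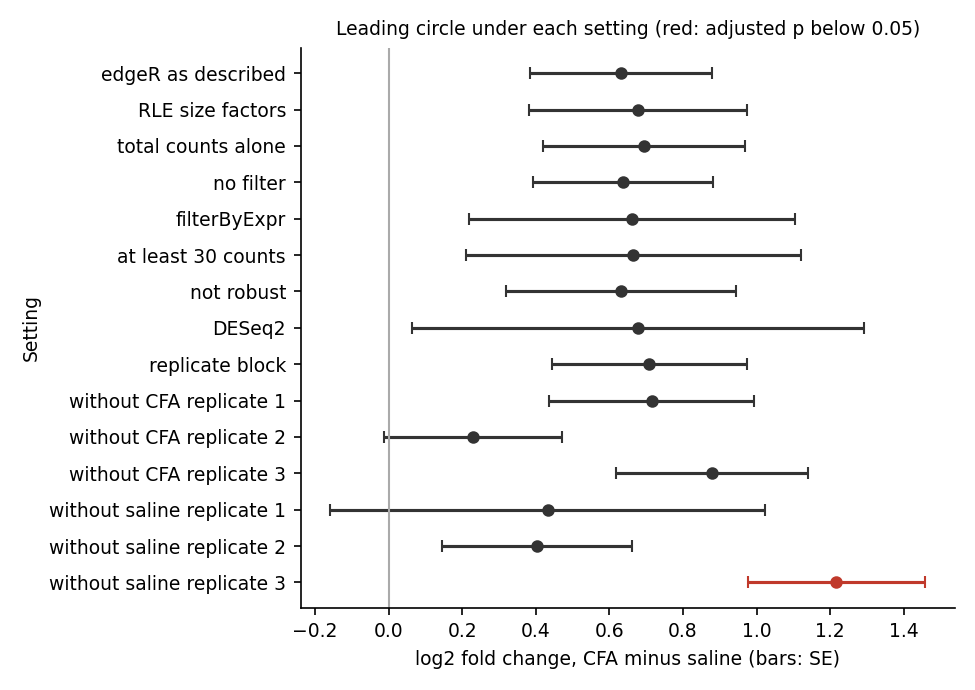
log2 fold change of the leading circle, CFA minus saline, with its SE as a bar, under the edgeR fit described and 14 other settings. All 15 values lie above 0, from 0.23 to 1.22, and the value without saline replicate 3 (red) is the only one with an adjusted p below 0.05.

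Of the 12 circles 11 had at least 10 reads over the 6 libraries and were tested, and 0 of these passed in edgeR, against 0.125% of all circRNAs tested. At an unadjusted p below 0.05 in edgeR there was 1 of the 11, the leading circle. Of all tested circRNAs 2.68% had such a p. In DESeq2 0 of the 11 had an unadjusted p below 0.05, against 379 of the 22426 tested circRNAs. DESeq2 called 0 of the 11 after adjustment, and 4 of the 22426. In 0 of the 11 did the RPM of the groups not overlap, against 6.63% of all tested. For the 6 circles read in every library the log2 fold changes lay between -0.33 and 0.67 with a median of 0.56, and 5 (83.3%) were above 0. Over the 8335 tested circRNAs read in every library the median was -0.02 and 47.6% were above 0. These circles share splice ends and their rats, so they are not independent.

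The second circle, novel_circ_0024928 (365 nt, 22954725 to 22964734), keeps segments 2 to 4 and leaves out segment 1. The CFA rats had 88, 161 and 109 of its reads and the saline rats 23, 48 and 203, or 134, 247 and 121 RPM against 40.1, 40.8 and 217 RPM. As for the leading circle, CFA replicate 2 and saline replicate 3 were highest, and saline replicate 3 exceeded CFA replicates 1 and 3. The means were 167 ± 69.5 and 99.3 ± 102 RPM (SD, n = 3 each). The log2 fold change of 0.67 ± 0.39 did not pass (adjusted p = 0.912 in edgeR with Benjamini-Hochberg adjustment). Without saline replicate 3 it was 2.01 ± 0.46 and passed (adjusted p = 0.00973 in the same test with Benjamini-Hochberg adjustment). Without saline replicate 1 it was 0.30 and without saline replicate 2 also 0.30, and without CFA replicate 2 it was 0.32. Here too the fit that passed left out the highest saline rat. With all rats the SE was 0.68 with at least 30 counts and 0.66 in DESeq2.

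novel_circ_0024920 (382 nt, 22950023 to 22957449) keeps segments 1 to 3 and ends before segment 4. Its reads were 66, 79 and 47 after CFA and 15, 44 and 93 after saline, or 101, 121 and 52.0 RPM against 26.1, 37.4 and 99.4 RPM. Saline replicate 3 again lay among the CFA values, and saline replicates 1 and 2 lay below all of them. The log2 fold change was 0.66 ± 0.44 (adjusted p = 0.912 in edgeR with Benjamini-Hochberg adjustment). Leaving out saline replicate 3 gave 1.46 ± 0.52, saline replicate 1 gave 0.33 and CFA replicate 2 gave 0.44, and none of these passed.

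The longer circle with the far end went another way among the rats. novel_circ_0024924 (574 nt, 22950023 to 23000600) had 68, 50 and 56 reads in the CFA rats and 47, 101 and 43 in the saline rats, or 104, 76.7 and 62.0 RPM against 81.9, 85.9 and 45.9 RPM. Saline replicate 3, the highest saline rat for the leading circle, was the lowest of all 6 here. The means of 80.8 ± 21.1 and 71.2 ± 22.0 RPM (SD, n = 3 each) gave a log2 fold change of 0.15 ± 0.43 (adjusted p = 0.9999 in edgeR with Benjamini-Hochberg adjustment). Its direction turned without CFA replicate 1 (-0.08) and without saline replicate 3 (-0.07).

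Of the remaining circles 2 were read in every library. novel_circ_0024918 (781 nt, 22946430 to 22964734) holds all 4 segments, the first beginning at its base 260. Its reads were 8, 33 and 4 in the CFA rats and 11, 22 and 38 in the saline rats, or 12.2, 50.6 and 4.43 RPM against 19.2, 18.7 and 40.6 RPM. CFA replicate 2 and saline replicate 3 were again highest, and the groups overlapped, at a log2 fold change of -0.33 ± 0.68. With CFA replicate 3 left out it was 0.18, and with saline replicate 3 left out also 0.18. novel_circ_0024929 (306 nt), with the far end and the start of segment 2, had 8, 11 and 10 against 4, 15 and 7 reads. In RPM these were 12.2, 16.9 and 11.1 against 6.97, 12.8 and 7.48, so CFA replicate 2 was highest and the groups overlapped. The log2 fold change was 0.48 ± 1.33. Leaving out 1 library each moved this between 0.30 (saline replicate 1) and 0.86 (saline replicate 2).

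**Figure D4:**
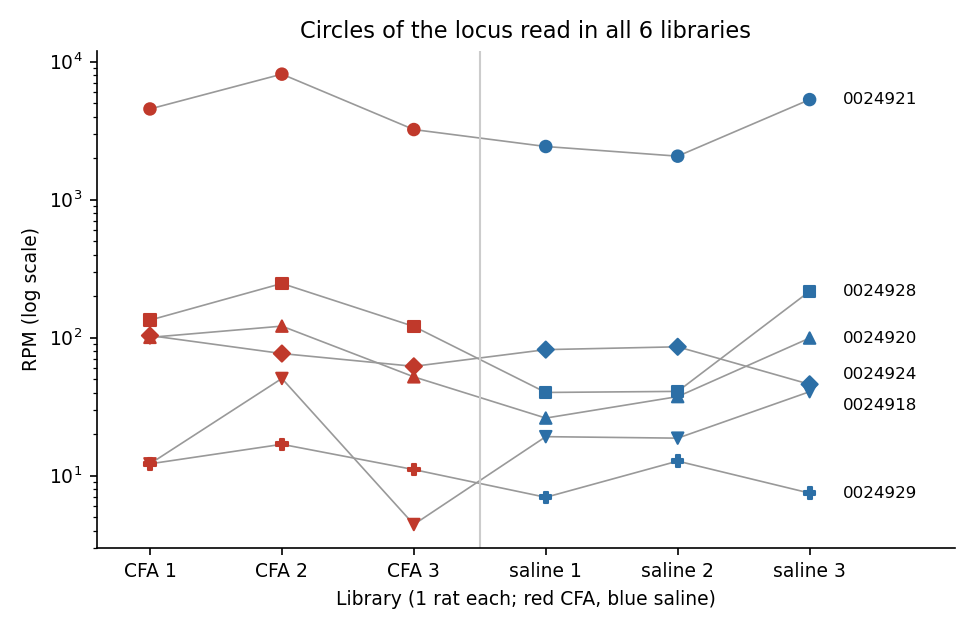
RPM on a log axis of the 6 circles read in all 6 libraries, CFA in red and saline in blue, with a grey line joining the values of 1 circle. novel_circ_0024921 and novel_circ_0024928 peak in CFA replicate 2 and saline replicate 3, while novel_circ_0024924 is lowest in saline replicate 3.

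The 6 rarest circles had 6 to 17 reads each over all libraries and were read in 1 to 3 of them. Of these, novel_circ_0024926, novel_circ_0024916 and novel_circ_0024919 were read in CFA replicate 2 (13, 10 and 5 reads) and saline replicate 3 (4, 4 and 6 reads) only. novel_circ_0024913 had 5, 2 and 0 reads in the CFA rats and 0, 0 and 4 in the saline rats. novel_circ_0024923 had 10 reads in CFA replicate 2 alone, and novel_circ_0024922, below the count minimum, 6 reads in CFA replicate 1 alone. The lowest count above 0 in the whole table was 2, so a listed 0 may stand for 1 read. CFA replicate 2 and saline replicate 3 showed 11 and 10 circles of the locus and the other libraries 6 to 8. These 2 libraries also held the most reads of the locus, 5666 and 5374 against 1493 to 3232, and the part of depth in the number of circles seen was not tested.

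The leading circle held between 91.4% and 93.4% of the locus reads in each rat. It made up 92.3%, 93.4% and 92.8% of the locus reads after CFA and 93.3%, 91.4% and 92.5% after saline, so the groups overlapped. The difference of means was 0.44 percentage points (92.8 ± 0.553% and 92.4 ± 0.979%, SD, n = 3 each; permutation test, exact and two-sided, p = 0.6, and 0.6 adjusted over 2 tests by Benjamini-Hochberg). The smallest p this design allows is 0.1.

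Not every minor circle kept a fixed share of the locus reads. The 2 circles with the far end held 2.35%, 1.08% and 2.10% of the locus reads after CFA and 3.42%, 4.36% and 0.930% after saline. The share in saline replicate 2 (Wilson 95% interval 3.65 to 5.20%) and that in saline replicate 3 (0.706 to 1.22%) differed beyond counting error. The leading circle makes up most of the denominator, so these shares depend on its level as well. The RPM of novel_circ_0024924 itself was 76.7 in CFA replicate 2, between the other CFA rats. In saline replicate 3 it was 45.9, the lowest of all libraries. What set these shares was not tested. Between the groups the means were 1.84 ± 0.676% and 2.90 ± 1.77% (SD, n = 3 each; permutation test, exact and two-sided, p = 0.5, and 0.6 adjusted over 2 tests). Without saline replicate 3 the difference of -1.06 percentage points was -2.04, without saline replicate 2 it was -0.33, and without CFA replicate 2 -0.67. For every 100 reads of the leading circle there were 0.865 to 4.15 reads of novel_circ_0024924, 1.65 to 4.08 of novel_circ_0024928 and 1.08 to 2.21 of novel_circ_0024920. The lowest ratio of novel_circ_0024920 rests on 15 reads in saline replicate 1, and counting error was not weighed for these ratios. The 2 circles that start at segment 2 held 2.97%, 3.04% and 3.79% after CFA and 1.81%, 2.37% and 3.91% after saline, with saline replicate 3 the highest of all.

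**Figure D5:**
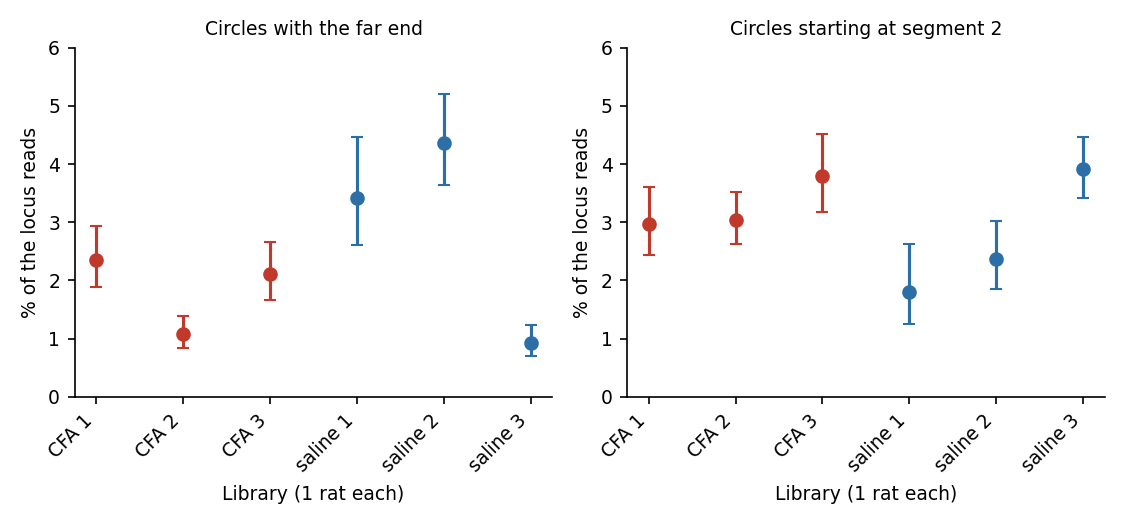
Share of the locus reads, in %, held in each library by the 2 circles with the far end (left) and by the 2 circles that start at segment 2 (right), with Wilson 95% intervals as bars, CFA in red and saline in blue. Saline replicate 3 has the lowest far-end share, 0.930%, and the highest share starting at segment 2, 3.91%.

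Summed over its 12 circles, the locus held 3232, 5666 and 3137 reads in the CFA rats and 1493, 2661 and 5374 in the saline rats, between 0.226% and 0.870% of a library's circRNA reads. In RPM the sums were 4922, 8695 and 3472 against 2602, 2262 and 5741, with saline replicate 3 above CFA replicates 1 and 3. The means were 5697 ± 2696 and 3535 ± 1918 RPM (SD, n = 3 each). The log2 fold change of the sum was 0.66 ± 0.56 and did not pass (adjusted p = 0.9998 over 7582 loci, edgeR quasi-likelihood F-test, Benjamini-Hochberg, where 0.0132% of loci passed). Leaving out CFA replicate 2 gave 0.21 and leaving out saline replicate 3 gave 1.24, and neither passed. The 11 circles other than the leading one summed to 401 ± 163 RPM in CFA and 266 ± 142 RPM in saline rats (SD, n = 3 each). Their log2 fold change of 0.56 ± 0.41 did not pass either (adjusted p = 0.9999 in the same test with Benjamini-Hochberg adjustment).

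An open reading frame without end was a feature of the leading sequence. Its 537 nt divide by 3, and 1 of the 3 frames had no stop codon on its way around the circle, with 2 ATG codons in it. Without the 15 nt stretch, at 522 nt, such a frame was also present. Among the 11 other circles novel_circ_0024929 had one too. A frame of this kind was found in 18.8% of all circRNAs and in 19.8% of the 7751 circRNAs of 450 to 650 nt, and it does not show translation. The leading circle's GC content was 45.1%, against a median of 47.6% in circRNAs of 450 to 650 nt. Its longest run of A was 4 bases, where that median was 5.

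Sites for a list of miRNAs chosen here were also searched for. Seeds, bases 2 to 8 of a mature miRNA, are the part that pairs with a target. Of 16 miRNAs planned, 15 had a sequence in the RefSeq table (GRCr8), miR-124-3p being the other, and the seeds of 3 had 1 match each in the leading circle, searched on the circle's own strand and across the junction. They are miR-7a, a neuronal miRNA known for its many sites in another brain circRNA, miR-138, which acts in dendritic spines, and miR-223, a miRNA of myeloid cells. The mature sequences are shown with the seed in capitals, to set beside the matches.
rno-miR-7a-5p: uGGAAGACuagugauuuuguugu
rno-miR-138-5p: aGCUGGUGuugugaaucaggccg
rno-miR-223-3p: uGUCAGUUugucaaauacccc

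The matches follow within their surroundings in the leading circle, with the 7 matching bases in capitals.
miR-7a match: gagctcatGTCTTCCagatcgac
miR-138 match: tgggtaccCACCAGCaagcatgc
miR-223 match: gaagatggAACTGACcagtaccc

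The matches begin at bases 32, 73 and 375, so those of miR-7a and miR-138 lie in segment 1 and that of miR-223 in segment 3. GTCTTCC occurred in 4.50%, CACCAGC in 7.86% and AACTGAC in 3.41% of the circRNAs of 450 to 650 nt. Because novel_circ_0024928 lacks segment 1, it lacks the first 2 of these sites as they stand in the leading circle. Of the 12 circles 7 held a miR-7a match, 8 a miR-138 match and 9 a miR-223 match. A match describes letters and shows no binding.

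Other circles followed the leading circle from rat to rat. Among 1656 circRNAs outside the locus with reads in every library and a mean of at least 100 RPM, the 5 most alike by Pearson's r of log2(RPM + 1) over the 6 libraries had r from 0.966 to 0.989. They were novel_circ_0045836, novel_circ_0031961, novel_circ_0046519, novel_circ_0048397 and novel_circ_0040874, from chromosomes 9, 4, 9, X and 7. Nearest was novel_circ_0045836 (360 nt, 16047755 to 16051380), with 99.0, 163 and 85.2 RPM after CFA and 64.5, 57.8 and 132 RPM after saline. In each of the 5, CFA replicate 2 was the highest library and saline replicate 3 the second, and the groups overlapped. With 6 libraries and 1656 candidates high values of r are found by selection, so they are a description, and nothing is said of shared function.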

How the data were processed

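circRNA libraries of 6 rat thalami were analysed, 3 CFA and 3 saline, with groups and replicate numbers from the titles. Read counts per circRNA were deposited by the authors, per the file headers, and all tests used these raw counts. Their normalized values are named TPM in the header, but 1 read had the same value for every circRNA of a library, so the unit deposited by the authors is RPM. RPM printed here were recomputed with each library's summed counts, 573696 to 1176178. Per the submitters' processing notes, DESeq2 1.20.0, featureCounts 1.5.0-p3, HISAT2 2.0.5 and StringTie 1.3.3b were used. The circRNA caller was not given in the sources used here. Positions and sequences came from the deposited sequence file, and starts counted from 0 there had 1 added.

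circRNAs with at least 10 counts over the 6 libraries, 22426 of 32445, were fitted in edgeR 4.0.16 under R 4.3.3 (TMM, robust dispersions, robust quasi-likelihood fit, no covariates), with Benjamini-Hochberg adjustment over all of them and a threshold of 0.05. Approximate SE were obtained by dividing the log2 fold change by the root of F. The same fit ran on counts summed over loci, which are runs of circRNAs that overlap on 1 strand. For this locus the sum took the 12 members given by the rule, and novel_circ_0024935 was kept apart as a locus of its own. The script was tested on simulated counts. Shares used exact permutation tests. Alternatives were RLE or total-count scaling, other filters, a fit that is not robust, DESeq2 1.42.0, a replicate block, other bounds of the locus and leaving out each library. Named circles were the members with at least 10 counts, and the 5 circRNAs most like the leading one. A planned list of postsynaptic genes was not analysed here, since it needs host gene names. Same-numbered rats did not deviate together (r of deviations from -0.07 to 0.02), so the numbers were not taken to pair the rats. The members and lists were chosen with earlier results of these data known, and the far-end share was added after the data were seen. The labels describe separate animals.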

Additional observations from a re-analysis of the deposited data

How the results depend on the processing

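The log2 fold change of the leading circle was 0.63 to 0.71 under 8 other settings and passed in none of them. Leaving out 1 library each gave 0.23 to 1.22, and 1 of these passed, without saline replicate 3. The locus sum ranged from 0.65 to 0.71 over 10 other settings and from 0.21 to 1.24 without 1 library, and the other circles summed from 0.55 to 0.64 and from 0.20 to 1.12. None of these sums passed. The difference in the leading circle's share ranged from -0.081 to 0.892 percentage points without 1 library, and turned without saline replicate 2. For single circles the ranges without 1 library were -1.69 to 0.18 for novel_circ_0024918, -0.082 to 0.365 for novel_circ_0024924 and 0.33 to 1.46 for novel_circ_0024920. They were 0.30 to 0.86 for novel_circ_0024929 and 0.30 to 2.01 for novel_circ_0024928. For novel_circ_0024919, at 0.09 ± 2.95 with all rats, the range was -0.47 to 0.68. That range holds no fit without CFA replicate 2 or saline replicate 3, the only libraries with its reads, since the circle then fell below 10 counts. The log2 fold changes with the replicate block were 0.71 ± 0.26 for the leading circle, 0.71 ± 0.23 for the locus sum and 0.64 ± 0.36 for the other circles (SE). The smallest adjusted p of these, in edgeR with Benjamini-Hochberg adjustment, was 0.375. For the locus sum the SE was 0.56 without the block, and the unadjusted p in edgeR was 0.295 without it and 0.00203 with it. In edgeR the block changed no call for the leading circle, the locus sum or the other circles summed. Permuting within pairs gave the share difference of 0.437 percentage points an exact p = 0.75. With so few pairs that permutation could not have given a call, so it decides nothing about the share. Of all circRNAs tested, 28 were called, but 0 with filterByExpr, 0 with at least 30 counts, 4 in DESeq2, 45 with the replicate block and 15 to 40 without 1 library. The cause was not tested. For the leading circle the range between rats, 3.93-fold, was far wider than the counting intervals. What limits the circles of 6 to 17 reads was not tested.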
